A study of Arabidopsis thaliana with 2 samples.

Results

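The 397 transcripts described here lay around the 5 centromeres of Arabidopsis thaliana and departed from the gene annotation. They were taken from a merged set of 52608 transcript models by 2 criteria. The first was a class code for a new isoform, for another exonic overlap on the same strand, for an antisense transcript or for an intergenic transcript. The second was a midpoint inside a fixed window on each chromosome, in TAIR10 coordinates. The windows ran from 13 to 17 Mb on chromosome 1, from 3.5 to 6.5 Mb on chromosome 2, from 11 to 15.5 Mb on chromosome 3, from 3 to 5.5 Mb on chromosome 4 and from 10 to 14 Mb on chromosome 5. They covered 18 Mb, and the chromosome arms outside them covered 101.1 Mb and held 10326 transcripts of the same 4 classes.

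The models were assembled from strand-specific RNA-seq of siliques, the seed pods, taken 1 to 5 days after pollination, with ribosomal RNA depleted before sequencing. The 2 labelled libraries both came from soil-grown Col-0 plants carrying the ago3-3 mutation in Argonaute 3, a small-RNA-binding protein (n = 2), and the design of the series also names wild type. The merged set carries no value per library, so a transcript may come from wild type, from ago3-3 or from both, and these cannot be told apart. There is no replicate error, no expression level and no known depth, so no test was run: shares are given with exact (Clopper-Pearson) 95% intervals and medians with 95% order-statistic intervals, which cover counting error only and treat transcripts of 1 gene as separate although they share most of their structure.

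Pericentromeres are the regions flanking the centromeres. In this species they are rich in transposable elements and their remnants, are poor in protein-coding genes, and are packed into heterochromatin kept by DNA methylation and histone H3 lysine 9 methylation. Small RNAs bound to Argonaute proteins guide part of that DNA methylation. The centromeres themselves carry long tandem arrays of a short satellite repeat. Much of the transcription that survives there comes from genes lying between the repeats, and transcripts of the repeats are usually scarce.

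The gene types of the windows matched the low share of protein-coding genes, while the content of transposable elements was not measured here. Of 3786 annotated genes in them, 2521 (66.6%) carried the reference's pseudogene type, which includes many genes of transposable elements, and 927 (24.5%) were protein-coding. In the arms 1389 of 29489 (4.71%) were pseudogenes and 25760 (87.4%) protein-coding.

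A group of 9 transcripts that share sequence with a tandem repeat is shown first. It was found in the windows alone and is easiest to see in the letters. It was picked out after the values were seen. Of the members, 3 are printed whole, as transcribed, and the last line is 1 repeat unit of the longest member. All coordinates are TAIR10, with the bases read from the RefSeq TAIR10.1 sequence. Capitals mark a stretch of 31 bases held by 8 of the 9.
Intergenic, chr4:4011578-4011695, minus strand: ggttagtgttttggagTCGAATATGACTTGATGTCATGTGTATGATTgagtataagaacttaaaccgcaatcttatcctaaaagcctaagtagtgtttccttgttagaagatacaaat
Intergenic, chr4:3968280-3968413, minus strand: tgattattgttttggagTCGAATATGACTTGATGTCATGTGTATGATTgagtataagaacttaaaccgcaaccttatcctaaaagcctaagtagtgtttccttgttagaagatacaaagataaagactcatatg
Intergenic, chr4:3954567-3954848, minus strand: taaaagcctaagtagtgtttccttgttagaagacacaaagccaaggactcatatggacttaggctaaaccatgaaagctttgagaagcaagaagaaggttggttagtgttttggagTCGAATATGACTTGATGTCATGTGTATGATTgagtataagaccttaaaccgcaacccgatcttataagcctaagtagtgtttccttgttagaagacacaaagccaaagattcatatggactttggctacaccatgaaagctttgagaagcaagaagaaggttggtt
Unit of the longest, chr5:11726067-11726244, plus strand: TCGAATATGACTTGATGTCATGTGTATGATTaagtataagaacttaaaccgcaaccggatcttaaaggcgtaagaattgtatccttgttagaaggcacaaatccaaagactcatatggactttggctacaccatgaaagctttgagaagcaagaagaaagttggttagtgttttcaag

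The longest member of the group was an intergenic transcript of 2659 nt on the plus strand of chromosome 5 (11726033 to 11728691). It repeated with a period of 178 bases: 82.6% of its bases equalled the base 1 unit further on. The other 8 were all the transcripts of the 397 that shared at least 1 stretch of 31 bases with it, on either strand, and 0 of the 10326 arm transcripts did. Of the 9, 8 were intergenic and 1 was antisense to the pseudogene AT4G06700. All 9 had a single exon, ran from 118 to 2659 nt and summed to 5953 nt. On chromosome 4 lay 6, between 3950544 and 4011695, and on chromosome 5 lay 3, between 11702208 and 11735022. The same repeat unit showed in the 381-nt member (chromosome 4, 3953432 to 3953812; 94.1% of bases equal 178 bases on) and in the 1055-nt member (chromosome 5, 11702208 to 11703262; 66.2%). The antisense member of 874 nt matched itself best at 356 bases (93.8%). The other members, of 118 to 294 nt, were too short for a period of 178 bases to be tried. At the shorter periods that were tried, 32.8% to 39.0% of their bases were equal at best, which cannot show whether the unit recurs. In the 282-nt member, printed above, stretches from before the capitals do recur after them. Those of 118, 134 and 156 nt were shorter than 1 unit, and the 156-nt member shared 10 of its 126 stretches of 31 bases.

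The 8 intergenic members all carried the repeat in the same direction, although 6 of them lay on the minus strand and 2 on the plus strand. The antisense member on chromosome 4 carried it in the opposite direction, with 288 of its 844 stretches of 31 bases shared on the opposite strand and 0 on the same strand. The stretches of the longest member, its own overlapping positions included, occurred at 26636 places inside the 5 windows, from 1938 on chromosome 3 to 12416 on chromosome 5, and at 1120 places outside them, of which 1118 were on chromosome 4. The stretch in capitals alone occurred at 192 places in the nuclear genome. Reads of such copies cannot be tied with certainty to 1 of them, so the positions of these 9 are uncertain. A consensus of the centromere satellite was not used here, and identity with it was not tested.

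Over all 397 members, the mix of classes differed from that of the arms. New isoforms, which share at least 1 splice junction with an annotated transcript, made up 265 (66.8%, 61.9 to 71.4%), against 90.4% of 10326 in the arms. Other exonic overlaps made up 73 (18.4%, 14.7 to 22.6%) against 5.53%, antisense transcripts 15 (3.78%, 2.13 to 6.16%) against 1.25%, and intergenic transcripts 44 (11.1%, 8.17 to 14.6%) against 2.82%. All 4 intervals lay clear of the value in the arms.

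**Figure D1:**
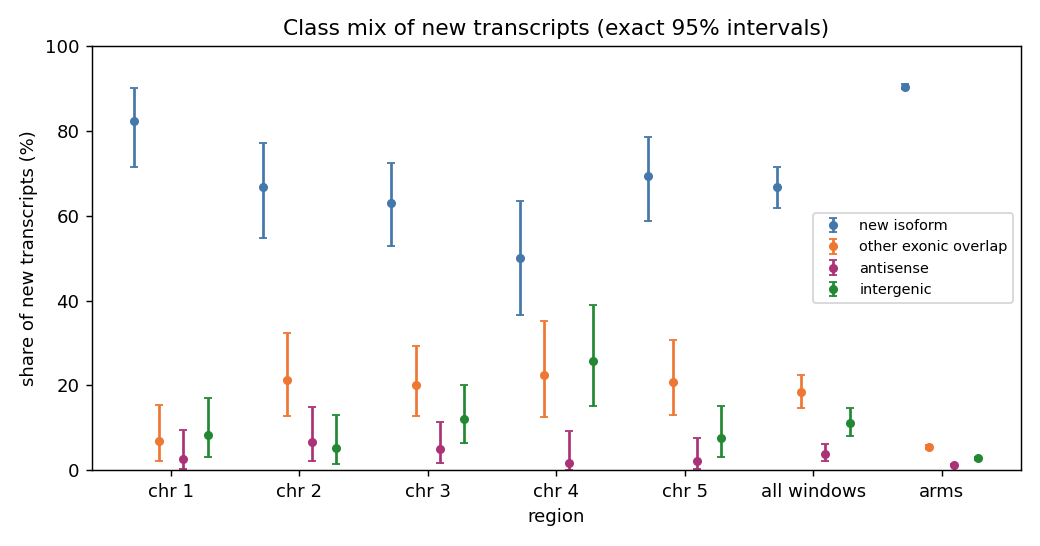
Share (%) of each of the 4 classes among new transcripts, by chromosome window, over all windows and in the arms; points are shares and bars exact 95% intervals. New isoforms ranged from 50% on chromosome 4 to 82.2% on chromosome 1, below the 90.4% of the arms in every window.

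The 5 windows did not share 1 mix. Chromosome 1 had 73 new transcripts, of which 60 (82.2%) were new isoforms and 5 other overlaps. Chromosome 2 had 75, with 50 new isoforms and 16 other overlaps, and chromosome 3 had 100, with 63 and 20. Chromosome 4 had 58, of which 29 (50%) were new isoforms and 15 (25.9%, 15.3 to 39.0%) intergenic. Chromosome 5 had 91, with 63 new isoforms and 19 other overlaps. Of the 15 intergenic transcripts on chromosome 4, 5 belonged to the tandem repeat group.

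Per length of sequence, new isoforms thinned most. They stood at 14.7 per Mb in the windows and 92.3 per Mb in the arms, a ratio of 0.160. The ratio was 0.718 for other exonic overlaps (4.06 against 5.65 per Mb), 0.653 for antisense transcripts (0.833 against 1.28) and 0.850 for intergenic transcripts (2.44 against 2.88). For all classes it was 0.216 (22.1 against 102 per Mb). New transcripts tied to an annotated gene numbered 9.32 per 100 annotated genes in the windows and 34 in the arms. Those tied to protein-coding genes numbered 28.4 per 100 protein-coding genes in the windows and 37.4 in the arms. When new transcripts of all kinds, those of pseudogenes and intergenic ones included, were set against protein-coding genes, there were 42.8 per 100 in the windows and 40.1 in the arms, with 34.1 on chromosome 1 at the low end and 64.4 on chromosome 4 at the high end.

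Over the 5 windows together the new transcripts sat mostly toward the edges, where the protein-coding genes were, but the left ends of the chromosome 2 and 4 windows were poor in both. The 20 bins of 0.5 Mb within 1 Mb of a window edge held 303 new transcripts and 731 protein-coding genes, and the 16 bins further in held 94 and 196. New isoforms numbered 217 in the outer bins and 48 in the inner ones, and intergenic transcripts 26 and 18. In 4 bins there was no new transcript, with 18 protein-coding genes and 237 pseudogenes among them. The choice of border matters at the edges: 48 members lay within 100 kb inside a border, and 63 new transcripts lay within 100 kb outside one.

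**Figure D2:**
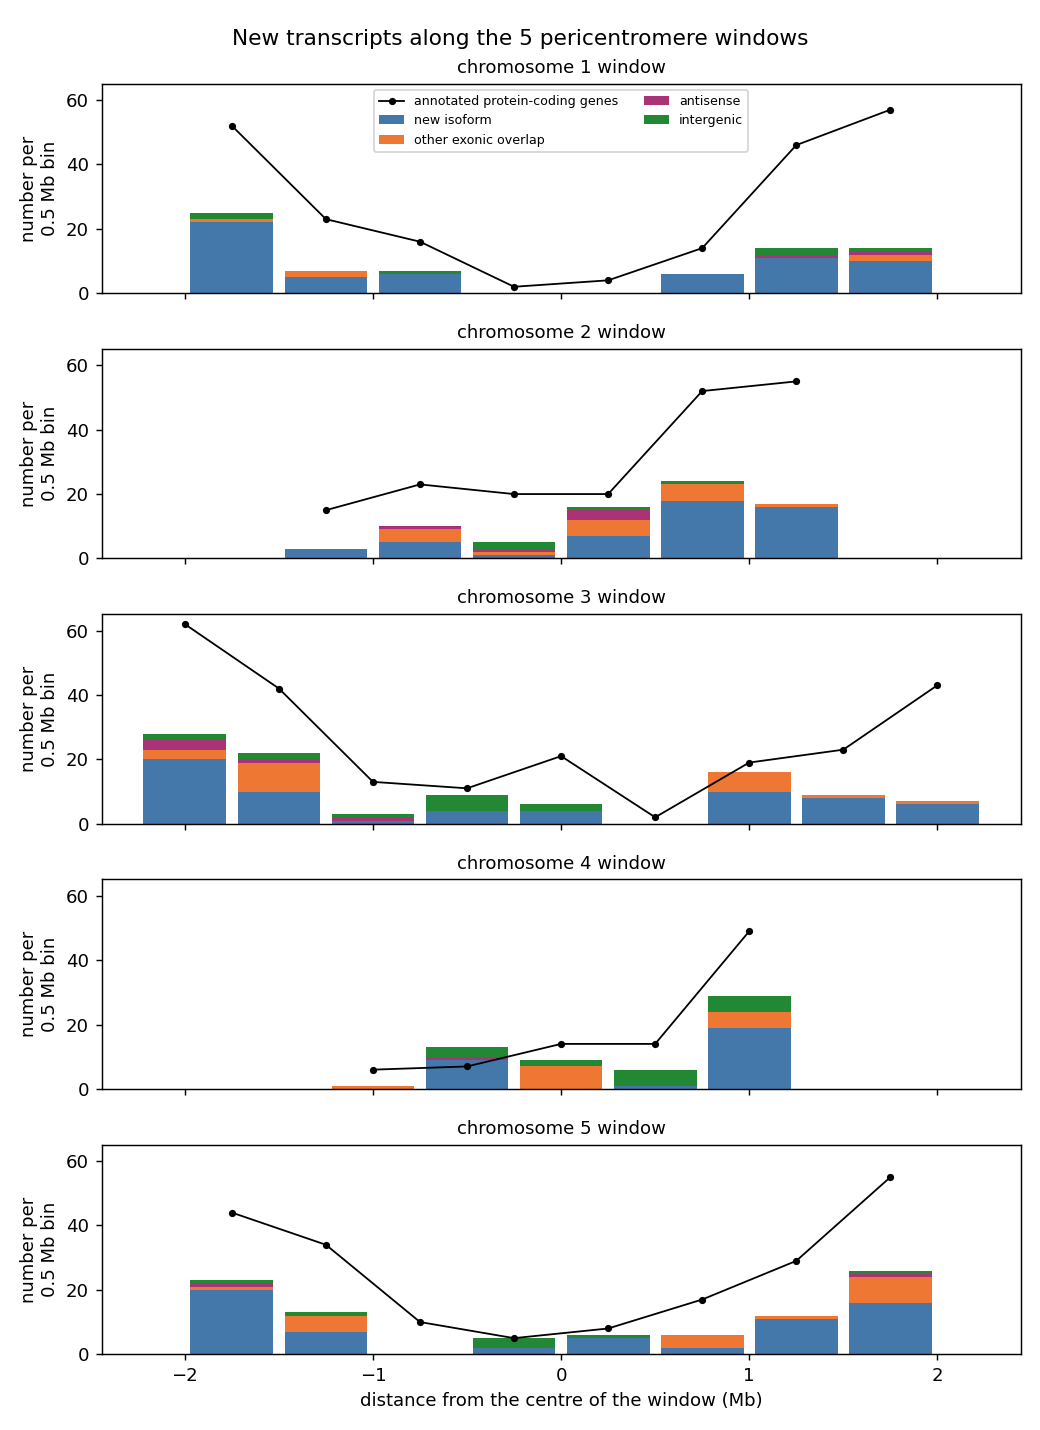
Number of new transcripts per 0.5 Mb bin (stacked bars, coloured by class) and of annotated protein-coding genes (black line), against the distance (Mb) from the centre of each window. The line is low near the middle on chromosomes 1, 3 and 5, while on chromosomes 2 and 4 it is lowest at the left end, and 4 bins hold no new transcript.

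Few annotated genes in the windows had a new isoform. There were 168 of 3786 (4.44%, 3.80 to 5.14%), against 6193 of 29489 (21%) in the arms and 19.1% of all 33275 annotated nuclear genes. With all classes counted there were 221 (5.84%) against 22.8%, and 20.8% over all nuclear genes. A gene with 1 exon has no junction to share. Among genes of all types with at least 2 exons, 168 of 1099 (15.3%, 13.2 to 17.6%) had a new isoform, against 29% in the arms, and among pseudogenes with at least 2 exons 3 of 324 in the windows and 9 of 242 in the arms. Among protein-coding genes with at least 2 exons, 161 of 722 (22.3%, 19.3 to 25.5%) had a new isoform in the windows, against 6087 of 20608 (29.5%, 28.9 to 30.2%) in the arms and 29.3% of all 21330 such genes. The arm rates for genes of the same exon number would give 198 in the windows, and the observed count was 0.811 of that.

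The gap varied with exon number, but in most groups the interval covered the arm value. Genes with 1 exon had a new isoform or another exonic overlap in 2.44% of 205 (0.797 to 5.60%) in the windows and 5.67% in the arms. Genes with 2 exons had a new isoform in 7.69% of 156 (4.04 to 13.1%) in the windows and 11.5% in the arms. For genes with 3 to 5 exons the values were 17.5% of 297 (13.4 to 22.3%) and 22%. Genes with 6 to 10 exons differed most in percentage points, at 27.1% of 177 (20.7 to 34.3%) against 37.6% (36.4 to 38.9%). Above that the values were close, at 51.4% of 74 genes (39.4 to 63.1%) against 50% for 11 to 20 exons, and 61.1% of 18 genes (35.7 to 82.7%) against 64.8% for 21 or more. Only for 1 exon and for 6 to 10 exons did the interval lie clear of the arm value. A difference in the gap between groups can thus not be told from counting error. On each chromosome the observed count was below that at arm rates: 41 against 51.8 on chromosome 1, 31 against 34.7 on chromosome 2, 35 against 47.6 on chromosome 3, 14 against 19.2 on chromosome 4 and 40 against 44.7 on chromosome 5. Where a window gene had any new isoform it had 1.58 on average, against 1.51 in the arms.

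**Figure D3:**
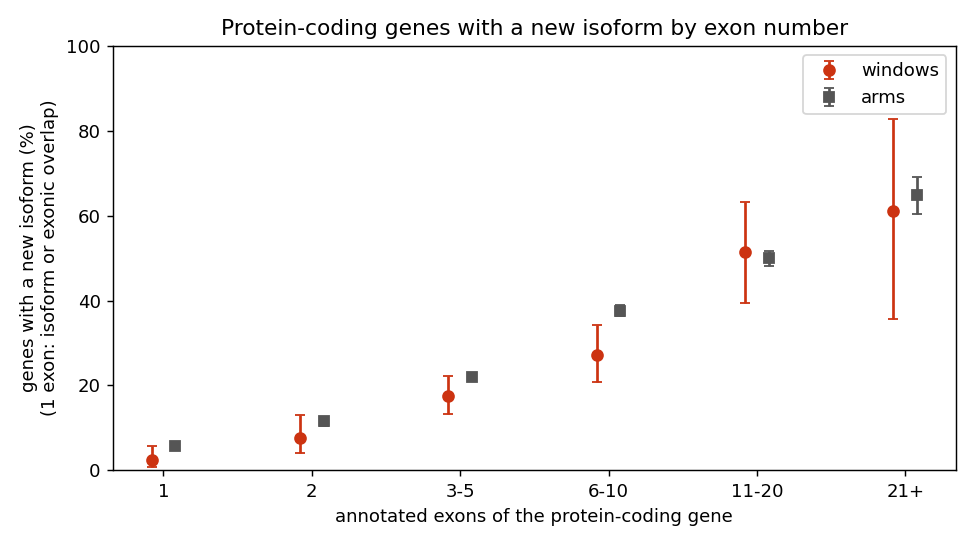
Share (%) of protein-coding genes with a new isoform, by number of annotated exons, in the windows (circles) and in the arms (squares), with exact 95% intervals; for genes with 1 exon, a new isoform or another exonic overlap was counted. The share rises with exon number in both regions, and the widest gap is at 6 to 10 exons (27.1% against 37.6%).

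In the windows 46 of the 73 other exonic overlaps (63%) were on pseudogenes, which made up 66.6% of the genes there. Another 18 (24.7%) were on transcribed pseudogenes, 6.1% of the genes, and 5 on protein-coding genes, 24.5% of the genes. In the arms 386 of 571 (67.6%) were on protein-coding genes, 87.4% of the genes there, and 52 (9.11%) on pseudogenes, 4.71% of the genes. Pseudogenes still rarely had any new transcript: 32 of 2521 (1.27%) in the windows and 52 of 1389 (3.74%) in the arms. For transcribed pseudogenes the values were 10 of 231 (4.33%) and 64 of 695 (9.21%). New isoforms in the windows were nearly all of protein-coding genes, 250 of 265.

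The new transcripts of the windows had fewer exons and were shorter as a whole. Within new isoforms the exon number did not differ in the median, and the interval of the length lay only just below the arm value. The median was 5 exons (4 to 6) against 8 in the arms, and 1687 nt of spliced sequence (1589 to 1848) against 2007. For new isoforms alone it was 8 exons (6 to 10) against 8, and 1869 nt (1687 to 2069) against 2079. For new transcripts of protein-coding genes alone, the length interval of 1764 to 2097 nt covered the 2062.5 nt of the arms. Other exonic overlaps had a median of 3 exons (2 to 3) against 2, and 2029 nt against 1820. Intergenic transcripts had a median of 644 nt against 665 and antisense transcripts of 778 against 774, with 1 exon in both regions. Single-exon transcripts were 12.6% of the members and 2.94% in the arms. Among antisense transcripts they were 14 of 15, against 78 of 129 (60.5%) in the arms, and among intergenic ones 32 of 44 (72.7%) against 159 of 291 (54.6%). Of those 32, 8 belonged to the tandem repeat group, whose positions are uncertain.

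Intron length was close in both regions. The median over the 1635 different introns of the members was 103 nt (99 to 105), and 104 nt in the arms, and without chromosome 1 it was 107 nt against 104. Introns absent from the annotation had a median of 131 nt (118 to 154) against 148 (145 to 152), while the annotated introns within the same transcripts had 97 against 100. The pooled gap did not hold within new isoforms, whose introns absent from the annotation had 157 nt (131 to 191) against 148 (144 to 152). In other exonic overlaps the median intron was 113 nt (101 to 127) against 153 (144 to 170). Introns over 1000 nt were 23 of 1635 (1.41%), against 0.854% in the arms.

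**Figure D4:**
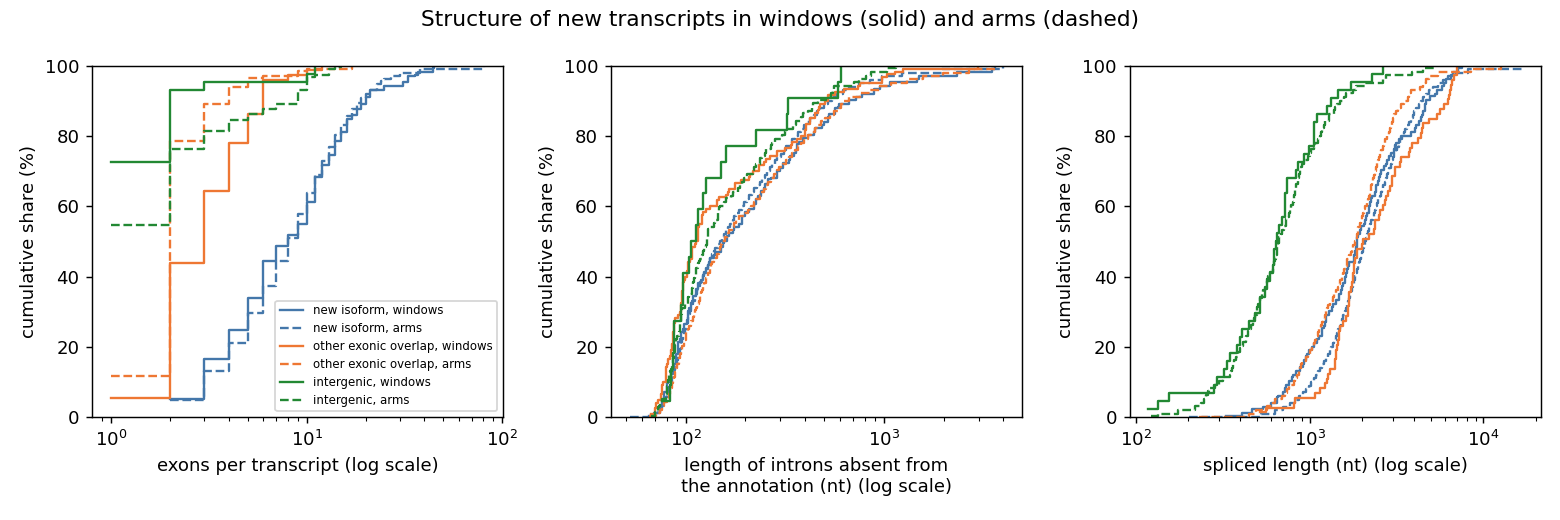
Cumulative share (%) of exon number per transcript, of the length of introns absent from the annotation (nt) and of spliced length (nt), all on log axes, for new isoforms, other exonic overlaps and intergenic transcripts in the windows (solid) and arms (dashed). The curves for new isoforms lie close together, and those for the exon number of other overlaps and intergenic transcripts lie apart.

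Of the members' introns, 381 of 1635 (23.3%) were absent from the annotation, against 15.6% in the arms. In the other classes than new isoforms every intron was absent in both regions, so these shares depend on the class mix. Within new isoforms 238 of 1492 (16.0%, 14.1 to 17.9%) were absent, against 14.2% in the arms, a value the interval covered. In 225 of the 381 (59.1%) both splice sites were new, against 36.4% in the arms. Within new isoforms the kinds of change were nearer to the arms: 96 of 238 (40.3%) kept the donor and used a new acceptor, against 41.9%, 47 (19.7%) kept the acceptor, against 24.3%, and 82 (34.5%) were new at both sites, against 28.7%. A retained annotated intron was seen in 42 of the 265 new isoforms (15.8%, 11.7 to 20.8%), against 13% in the arms. The newer annotation held 102 of the 381 (26.8%), a share like the 27.7% of the arms, but for other exonic overlaps it held 33 of 120 (27.5%) against 304 of 661 (46.0%).

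Introns normally begin with GT and end with AG in the DNA, and this held for 358 of the 381 (94.0%, 91.1 to 96.1%), against 95.4% in the arms. Another 7 were GC-AG and 2 AT-AC, which the spliceosomes also use. The remaining 14 (3.67%, against 1.55% in the arms) were mostly of 1 gene, singled out after its values were seen though it is also named below by its length. The pseudogene AT2G11240 on chromosome 2 (4477686 to 4483748), listed on the minus strand, had 2 new transcripts with 8 introns, and all 8 had CT-AC ends, the whole of this type in the windows. Read on the opposite strand all 8 were GT-AG. The shortest of them is printed as listed, with its end bases in capitals and 20 flanking bases on each side.
AT2G11240 intron, chr2:4480186-4480304, minus strand: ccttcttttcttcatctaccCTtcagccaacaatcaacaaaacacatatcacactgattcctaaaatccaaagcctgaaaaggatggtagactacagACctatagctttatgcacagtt
The strand given to these 2 transcripts, and with it their class as overlaps rather than antisense, is therefore uncertain. One of them, at 5629 nt, was the fifth longest multi-exon overlap, counting 1 transcript per locus.

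New transcripts were spread over many genes. Of the 221 genes with any, 147 had 1, 41 had 2 and 33 had at least 3, and those 33 carried 124 members. The 33 were 14.9% of the 221, against 10.7% in the arms, and no interval was computed for this small group. The most, 7 each, fell on AT4G07507 and AT5G28400. AT4G06701, a noncoding RNA gene, had 6, and AT3G33530 (a WD-40 repeat protein), AT3G42052 and AT5G27970 (an ARM repeat protein) had 5 each. Then came AT1G35630 (a RING/U-box zinc finger protein), AT1G36070 (a WD40 repeat protein), AT2G14520 (a CBS domain protein), MEE13 (AT2G14680), RIK (AT3G29390, a KH protein) and the long noncoding RNA gene AT3G29644 with 4 each. By window the highest counts were 4 on chromosome 1 (AT1G35630 and AT1G36070), 4 on chromosome 2 (AT2G14520 and MEE13), 5 on chromosome 3 (AT3G33530 and AT3G42052) and 7 on chromosomes 4 and 5.

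AT4G07507 is annotated as a pseudogene of 1 exon on the plus strand of chromosome 4 (4309156 to 4310671). Its 7 new transcripts reached to 4311785, had 2 to 5 exons and 1620 to 2527 nt, and used 8 introns, all GT-AG, of which 1 is in the newer annotation. All 7 spliced from the same donor at 4310508 to 1 of 3 acceptors, giving introns of 103 nt in 4 transcripts, 107 nt in 2 and 140 nt in 1. The first 2 acceptors lie 4 bases apart, as the AG pairs in capitals show.
AT4G07507 acceptors, chr4:4310570-4310667, plus strand: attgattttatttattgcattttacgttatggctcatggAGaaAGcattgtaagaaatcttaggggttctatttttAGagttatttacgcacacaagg
At most 1.24% of the sequence of any of the 7 (by stretches of 31 bases) was found elsewhere in the genome.

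AT3G42052, also a 1-exon pseudogene (chromosome 3, plus strand, 14235495 to 14242638), had 5 new transcripts of 6239 to 6777 nt with 3 to 5 exons. An intron of 96 nt (14239294 to 14239389) was in all 5. The next intron began at 14239485 with GT in 3 transcripts, and in 1 transcript 1 base further on, giving TA-AG ends. The shared GT donor is in capitals.
AT3G42052 donor, chr3:14239465-14239515, plus strand: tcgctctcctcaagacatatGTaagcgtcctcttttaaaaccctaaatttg
The other genes typed as pseudogene with most new transcripts, transcribed pseudogenes not counted, were AT3G29120 (chromosome 3) with 3 of 4 to 6 exons and 6 GT-AG introns, AT5G28622 (chromosome 5) with 3 and 2 introns, both in the newer annotation, and AT1G36680 (chromosome 1) with 2, the first by gene ID of those with 2.

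AT5G35738, a transcribed pseudogene on chromosome 5 (13909371 to 13909688), is described because of its pattern, which was noticed after the values were seen. It had 4 new transcripts of 2 exons, starting upstream of the annotated gene. They were the 4 combinations of donors at 13908531 and 13908842 with acceptors at 13909050 and 13909095, each in 1 transcript. The sites are shown with their GT and AG in capitals.
AT5G35738 first donor, chr5:13908516-13908556, plus strand: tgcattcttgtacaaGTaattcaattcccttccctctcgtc
AT5G35738 second donor, chr5:13908827-13908867, plus strand: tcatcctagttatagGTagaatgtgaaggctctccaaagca
AT5G35738 acceptors, chr5:13909020-13909115, plus strand: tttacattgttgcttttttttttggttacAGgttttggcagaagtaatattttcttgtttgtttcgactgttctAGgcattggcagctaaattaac

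The 7 isoforms of AT5G28400 (an embryo defective protein, chromosome 5, minus strand, 10344024 to 10348234) rested on repeated sequence. Each spanned AT5G28380, AT5G28390 and AT5G28400 together, from 10338723 to as far as 10348472, with 13 to 21 exons. They had 12 new introns, 10 of them GT-AG and 2 GC-AG, and 0 were in the newer annotation. Between 93.6% and 95% of their sequence occurred elsewhere. The longest had 7755 matching places, of which 6555 lay within 100 kb, with AT5G28320 holding 3547 and AT5G28340 holding 1985, so much of this sequence does not tell the copies apart and the 7 structures are uncertain. All 4 isoforms of MEKK3 (AT4G08470, a MAP kinase kinase kinase, named after its values were seen) likewise ran into a neighbour, AT4G08480. Over all new isoforms, exons in at least 2 annotated genes were less common in the windows (27 of 265, 10.2%) than in the arms (15.6%).

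The protein-coding genes high on the list changed mostly 1 to 4 introns. AT3G33530 had 22 annotated exons and 3 new introns, of which 14087189 to 14087379 was in 4 of its 5 isoforms and is in the newer annotation. AT5G27970, with 46 annotated exons, had 5 isoforms of 43 to 45 exons but 2 new introns. In MEE13 an intron of 805 nt (6280302 to 6281106 on chromosome 2) was in 3 of 4 isoforms. In AT1G36070 a new intron of 398 nt (13468700 to 13469097 on chromosome 1) was in 3 of 4 isoforms and is in the newer annotation. The 4 isoforms of RIK were uneven in extent and ranged from 2 to 11 exons and from 934 to 2431 nt. In AT4G06701 the 6 isoforms used 3 new introns, all GT-AG.

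Of 27 genes in a list for RNA-directed DNA methylation, heterochromatin and centromeres, 1 lay in a window and had a new isoform. The other 26 lay in the arms, and 14 of them had one, where over the whole genome 29.3% of multi-exon protein-coding genes did. The 29.3% does not allow for exon number, and most of the 26 had at least 11 annotated exons. Arm genes with 11 to 20 exons had a new isoform in 50%, and those with 21 or more in 64.8%. A count at matched exon number was not made for this list. The gene in a window was CHR38, also called CLSY1 (AT3G42670, chromosome 3, minus strand, 14755798 to 14760085), an SNF2-type chromatin protein that RNA polymerase IV needs at many of the loci where it starts small RNA production. Its 3 new isoforms of 6 or 7 exons all started upstream of the annotated gene, up to 14760599, with a first intron that ended at the same acceptor. The donor gave an intron of 297 nt in 2 isoforms, which the newer annotation holds, and of 415 nt in 1. A further 2 new introns, of 104 and 89 nt, were in 1 isoform. The sites of the first intron are shown as transcribed.
CHR38 donor in 2 isoforms, chr3:14760403-14760443, minus strand: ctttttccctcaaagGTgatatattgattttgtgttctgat
CHR38 donor in 1 isoform, chr3:14760521-14760561, minus strand: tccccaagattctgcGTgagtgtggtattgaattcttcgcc
CHR38 shared acceptor, chr3:14760112-14760162, minus strand: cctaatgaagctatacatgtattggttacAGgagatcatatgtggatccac

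**Figure D5:**
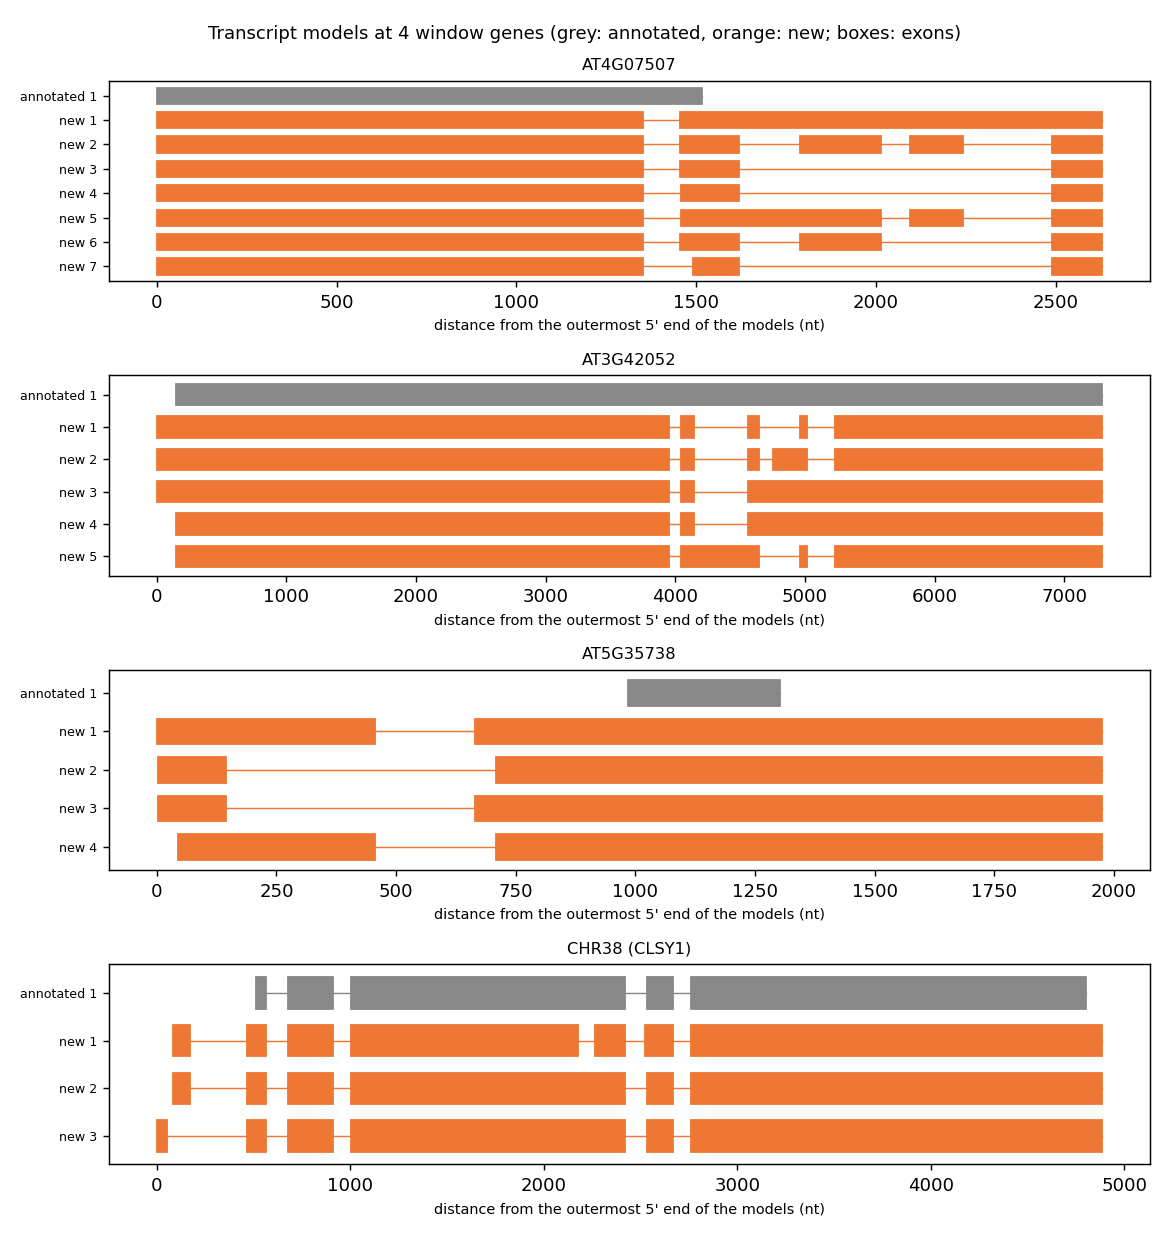
Annotated (grey) and new (orange) transcript models at AT4G07507, AT3G42052, AT5G35738 and CHR38, with exons as boxes and introns as lines, against the distance (nt) from the outermost 5′ end of the models. The 3 pseudogenes have 1 annotated exon and new models of 2 to 5 exons, and the 3 new CHR38 models have an added first exon.

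The 44 intergenic transcripts stood at 41 loci, further from genes than in the arms. The median distance to the nearest annotated gene was 1563 bp (892 to 2135) against 590 bp, and 27 of 44 against 99 of 291 lay at least 1000 bp away. Annotated genes were also sparser, at 3786 in 18 Mb of windows and 29489 in 101.1 Mb of arms, and the distance of other intergenic positions was not measured. The 44 include 8 of the tandem repeat group, whose positions are uncertain. The nearest gene was a pseudogene for 26 of 44, with 66.6% of window genes of that type, and a protein-coding gene for 13. In the arms it was a protein-coding gene for 233 of 291, with 87.4% of arm genes of that type, and a pseudogene for 24. For 20 of the 44 (45.5%) the newer annotation has since gained a gene on that strand, 8 of them protein-coding and 7 long noncoding RNAs, against 174 of 291 (59.8%) in the arms. Counting 1 transcript per locus, the longest with several exons, 11 exons and 1454 nt on the plus strand of chromosome 4 (5424933 to 5427637), lies in such a gene, AT4G08535, typed as protein-coding there. At the next 4 loci they had 2 exons each and 834 to 639 nt. The 1 antisense transcript with 2 exons, of 856 nt on the minus strand of chromosome 3 (11695789 to 11696748), lay opposite AT3G29791.

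Repeated sequence was more common among the members than in the arms. More than 50% of the stretches of 31 bases occurred elsewhere in the nuclear genome for 28 of 397 (7.05%), against 88 of 10326 (0.852%). For new isoforms this was 12 of 265 (4.53%) against 61 of 9335 (0.653%), and 7 of the 12 were of the single gene AT5G28400. For intergenic transcripts this was 12 of 44 (27.3%) against 9 of 291 (3.09%), and 8 of the 12 belonged to the tandem repeat group. The median share was 11.5% for intergenic transcripts and 6.32% for other exonic overlaps, against 0.586% and 0 in the arms. For new isoforms it was 0 in both. Annotated transcripts of pseudogenes had a median of 26.3% in the windows and 14.9% in the arms, and those of protein-coding genes 0 in both. The overlaps lay mostly on pseudogenes in the windows and mostly on protein-coding genes in the arms. The longest multi-exon overlaps were AT1G43886 (7045 nt, chromosome 1, 1.8% repeated), AT3G42052 (6777 nt), a transcript of the ribosomal RNA genes at AT3G41768 (6313 nt, chromosome 3, 14197677 to 14204153, 92.5% repeated) and AT2G12490 (5916 nt, chromosome 2, 38.0% repeated). The ribosomal transcript was assembled although ribosomal RNA had been depleted from the libraries.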

How the data were processed

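Alignment was done with TopHat2 and assembly with Cufflinks, after base calling with CASAVA 1.8, on TAIR10, per the submitters' processing notes. No source used here gives their settings or the other versions. The authors deposited a single merged set of transcript models with class codes, with 0 columns of values per library.

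Transcripts of class j, o, x or u were placed by midpoint in 5 windows. Gene types, newer genes and bases came from RefSeq TAIR10.1: 32803 of 32807 nuclear genes in both annotations overlapped on the same strand. Repeats were stretches of 31 bases found elsewhere in the nuclear genome. Shares carry exact 95% intervals. Python 3.11.15, numpy 2.4.6, pandas 2.3.3 and scipy 1.17.1 were used, tested on simulated data.

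Named were the 12 genes with most new transcripts (ties by gene ID), the leading gene of each window, the 5 longest multi-exon transcripts of the intergenic, antisense and overlap classes (1 per locus), window genes of the silencing list, and the 5 pseudogenes with most. Members and lists were chosen with earlier results of these data known. Alternatives changed the window borders, the unit counted, the classes and the gene type, and left out each chromosome.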

Additional observations from a re-analysis of the deposited data

How the results depend on the processing

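Of 122 recomputed values over 12 results, 104 stayed within the interval of the reported value, or within 1.5 times it for counts and rates. The 104 include 12 from requiring the whole transcript inside a window, which left the members, and so every value, unchanged. They also include the share of genes with a new isoform when new isoforms alone were counted, which could not change. The direction against the arms changed for the median intron length without chromosome 1, at 107 nt against 104 in the arms (103 against 104 as reported, within the interval), and the median exon number equalled that of the arms in the cases named below. With windows narrowed by 0.5 Mb at both ends there were 224 new transcripts, 59.4% of them new isoforms, and 3.11% of genes had a new isoform. With windows widened by 0.5 Mb there were 683, with 73.5% new isoforms and 7.91% intergenic, and 6.25% of genes had one. With 1 transcript per locus the intergenic share was 15.1%, new transcripts tied to a gene were 5.94 per 100 annotated genes (9.32 as reported) and the median spliced length 1542 nt. New isoforms alone had a median of 8 exons (8 in the arms) and 1869 nt (1687 to 2069, against 2079 in the arms). Protein-coding genes alone left 263 transcripts, 28.4 per 100 genes, and 17.4% of genes with a new isoform. Their medians were 8 exons (8 in the arms) and 1869 nt (1764 to 2097), an interval that covered the 2062.5 nt of the arms. No paired analysis was possible because the merged set carries no value per library, and for the same reason no library could be left out. Depth is unknown, so a gene without a new transcript may have lacked reads, and this was not tested.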
